A study of Saccharina japonica with 9 samples.

Results

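The chloroplast genome of the brown alga *Saccharina japonica* held 36312 cytosines that were listed as methylated in at least 1 library. They were chosen by their place alone, as every cytosine that the deposited lists put on the chloroplast, joined over libraries by position and strand. They stand among 30289287 cytosines listed in the whole series, of which 12824 lie on the mitochondrial genome. Whole-genome bisulfite sequencing (WGBS) was made for 9 libraries of strain Ye-c12, which had 3 biological replicates in each of 3 life-cycle stages. Male gametophytes (MG) and female gametophytes (FG) are haploid and were aged 2 months. Both go back to gametophytes from a blade of a diploid Ye-c12 sporophyte and were grown as clones, which limits each sex to cloned material of 1 strain. Sporophytes (SP) are diploid, came from a cross of FG and MG and were aged 4 months. The whole body was used in each stage. No group was treated, and stage, age and ploidy change together between gametophytes and SP and cannot be told apart. The same lambda DNA spike and the same repeated bisulfite treatment were used for all 9 libraries.

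The chloroplast of brown algae keeps a small genome of its own, present in many copies per cell, which encodes parts of the photosynthetic apparatus and of the machinery that expresses them. Cytosine methylation is best known from nuclear DNA, where it is placed by DNA methyltransferases in the contexts CpG, CHG and CHH, H being any base but G. Its presence in plastid DNA is debated in plants and algae, and levels given for it are mostly low. Bisulfite turns unmethylated cytosines into a base that is read as thymine. A cytosine that escapes the reaction is read in the same way as a methylated one, and bisulfite data alone do not tell them apart.

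The level of a cytosine (MLmc) is its methylated reads over all its reads. A cytosine was listed by the study where its methylated reads differed from a background rate, set for each library and context, in a two-sided binomial test. All CHG and CHH cytosines listed on the chloroplast lay above that rate, but 3 CpG cytosines in FG3, 16 in SP2 (10.2% of its CpG cytosines) and 59 in SP3 (24.9%) lay below it, and the CpG values given here include them. The rate was recovered from the deposited p-values. It was 0.0591% to 0.0704% for CHG and CHH in 8 libraries and 0.0175% to 0.0179% in the first sporophyte library (SP1). For CpG it was 0.250% to 0.302% in the same 8 libraries and 0.0746% in SP1. The chloroplast was read deeply, with a median coverage of 881, 933 and 1938 reads per listed cytosine in MG1 to MG3, 1156, 1417 and 2196 in FG1 to FG3, and 1364, 1737 and 2023 in SP1 to SP3. At such depth the lowest CHH level that was listed at median coverage lay between 0.148% in SP1 and 0.344% in MG1. A cytosine missing from a list may therefore still have some methylated reads. SP1 stands apart from SP2 and SP3 through its lower background rate, and SP2 and SP3 stand apart from all others through which cytosines they list, as given below with each result.

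Chloroplast cytosines were listed far more often in gametophytes than in sporophytes. MG1 to MG3 listed 27063, 27022 and 32198 of them and FG1 to FG3 listed 29367, 28984 and 32815. SP1 listed 13227, against 2450 in SP2 and 2973 in SP3. The 6 gametophyte libraries all lay above the 3 SP libraries, whereas MG and FG overlapped. The mean was 28761 ± 2977 in MG, 30389 ± 2110 in FG and 6217 ± 6077 in SP (SD, n = 3 each), which gave a ratio of 4.63 for MG to SP and 4.89 for FG to SP. Both contrasts had p = 0.1 in a two-sided exact permutation test, the smallest p that 3 libraries against 3 allow. MG and FG had a ratio of 0.946 (exact permutation p = 0.5).

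**Figure D1:**
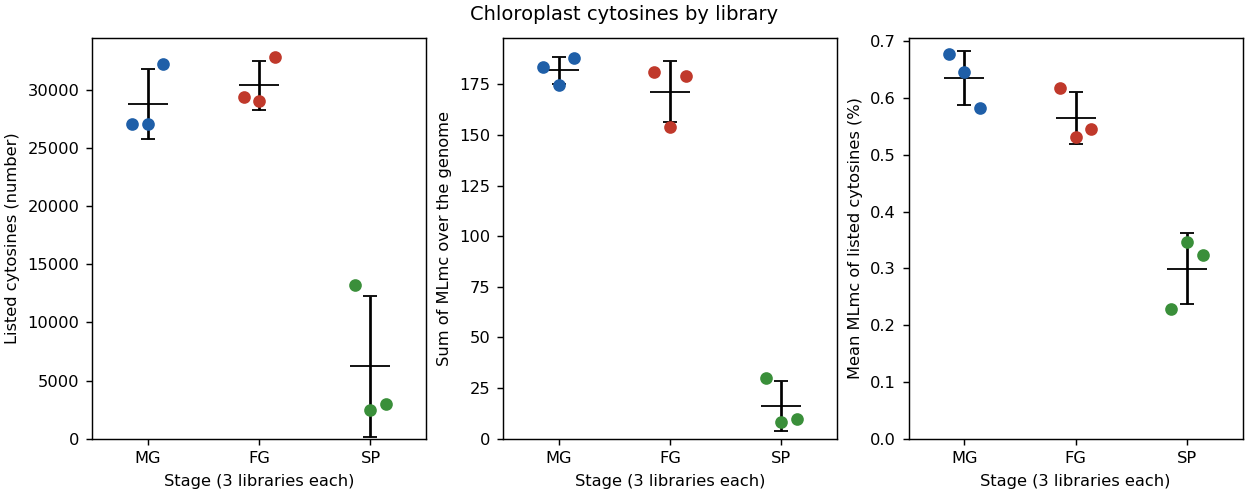
Number of listed chloroplast cytosines, sum of MLmc over the chloroplast and mean MLmc of the listed cytosines (%), with 1 point per library and black lines for the stage mean ± SD (n = 3 each). The SP libraries lie below every gametophyte library in all 3 panels, and SP1 lies apart from SP2 and SP3.

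The sum of MLmc, which counts each listed cytosine by its level, separated the stages more widely than the number of cytosines. It was 183.3, 174.4 and 187.8 in MG1 to MG3, 181.2, 153.9 and 179.0 in FG1 to FG3, and 30.2, 8.49 and 9.64 in SP1 to SP3. All SP libraries lay far below all gametophyte libraries. The MG mean of 181.8 ± 6.80 was 11.3 times the SP mean of 16.1 ± 12.2, and the FG mean of 171.4 ± 15.2 was 10.6 times it (SD, n = 3 each, exact permutation p = 0.1 for both). MG and FG overlapped, with a ratio of 1.06 (exact permutation p = 0.4). Without SP1 the ratios to SP were 20.1 for MG and 18.9 for FG.

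Levels of single cytosines were low in every library. The mean MLmc of listed cytosines was 0.677%, 0.645% and 0.583% in MG1 to MG3, 0.617%, 0.531% and 0.546% in FG1 to FG3, and 0.228%, 0.347% and 0.324% in SP1 to SP3. MG averaged 0.635% ± 0.0478, FG 0.565% ± 0.0460 and SP 0.300% ± 0.0630 (SD, n = 3 each). The ratio was 2.12 for MG to SP and 1.88 for FG to SP (exact permutation p = 0.1 for both) and 1.13 for MG to FG (exact permutation p = 0.2). Over the 318 cytosines listed in all 9 libraries the ratios were 2.16, 1.97 and 1.10 in the same order. Each mean holds only levels that passed the listing floor of its own library, and this is also true of the 318. The part of the unequal floors in these ratios was not tested.

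Since unlisted cytosines may still hold methylated reads, the mean over all 36312 cytosines was bracketed. Its lower bound sets unlisted cytosines to zero. Its upper bound sets them to the highest count that would have stayed unlisted at the median coverage of listed cytosines of that library and context. An unlisted cytosine with fewer reads could hold a higher level, so the upper bound is not a strict one. The bracket was 0.505% to 0.589%, 0.480% to 0.560% and 0.517% to 0.558% in MG1 to MG3. It was 0.499% to 0.556%, 0.424% to 0.483% and 0.493% to 0.525% in FG1 to FG3. It was 0.0830% to 0.141%, 0.0234% to 0.212% and 0.0265% to 0.200% in SP1 to SP3. The lowest gametophyte bound was above the highest SP bound, so gametophytes lay above SP under either of these settings of unlisted cytosines. At the upper bound the ratio was 3.08 for MG to SP and 2.83 for FG to SP.

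A single bar for all libraries gave the widest separation. With at least 500 reads and an MLmc of at least 0.5%, 16614, 15207 and 16541 CHG and CHH cytosines were counted in MG1 to MG3 and 15984, 11801 and 14702 in FG1 to FG3. SP1 to SP3 had 146, 110 and 90, so that SP1 no longer stood apart. With at least 500 reads, cytosines of any context at 1% or more numbered 3065, 2351 and 1815 in MG1 to MG3, 2239, 1179 and 1457 in FG1 to FG3, and 2, 3 and 3 in SP1 to SP3. These bars were chosen after the values had been seen.

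Many cytosines were shared between gametophyte libraries. All 6 gametophyte libraries shared 16373 cytosines, 45.1% of the union, and 8864 of these were listed in no SP library. All 3 SP libraries shared 513, and none of those was without a gametophyte library. Cytosines found in all libraries of 1 gametophyte stage and in no other library were few, 31 for MG (0.0854% of the union) and 81 for FG (0.223%). The one with the highest level for MG was a CpG at position 74502 on the minus strand, with 1.21%, 1.42% and 0.791% in MG1 to MG3. The 4 next for MG (positions 5113, 22546, 70719 and 32779) averaged 0.899% to 1.04%. For FG, position 1491 on the plus strand had 3.70%, 1.08% and 1.60% at a coverage of only 108, 186 and 187 reads, and the 4 next (positions 85361, 85120, 41081 and 28459) averaged 0.915% to 1.81%. Several of these levels rest on few reads, with 1, 2 and 1 methylated reads at position 85361 in FG1 to FG3 and 4, 2 and 3 at position 5113 in MG1 to MG3. Levels over the 16373 shared cytosines correlated between libraries with Pearson's r of 0.43 to 0.58 within a gametophyte stage and 0.44 to 0.60 between MG and FG, as a description over sites of 1 genome that share library, depth and base composition.

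CHH was the main context. The union held 27815 CHH cytosines (76.6%), 5215 CHG (14.4%) and 3282 CpG (9.04%). Of the CHH cytosines, 78.7%, 78.2% and 93.4% were listed in MG1 to MG3, 85.2%, 84.9% and 95.5% in FG1 to FG3, and 38.0%, 6.60% and 7.96% in SP1 to SP3. The listed share of CHG cytosines was 81.4%, 82.5% and 93.5% in MG, 87.1%, 84.1% and 94.8% in FG, and 41.0%, 8.76% and 10.03% in SP. The listed share of CHH was lower than that of CHG in 7 of 9 libraries, with a mean difference of -1.63 percentage points (exact sign-flip permutation p = 0.0273, adjusted p = 0.0447). Within gametophytes alone, where FG2 and FG3 went the other way, the exact sign-flip permutation p was 0.219 (adjusted p = 0.2625). The ratio of CHH to CHG was 0.948 to 1.01 in gametophytes, 0.928 in SP1, 0.753 in SP2 and 0.793 in SP3. CpG cytosines were listed less often in 9 of 9 libraries (28.5%, 29.9% and 40.6% in MG, 34.5%, 29.9% and 39.5% in FG, 15.7%, 4.78% and 7.22% in SP), with a mean difference to CHH of -37.5 percentage points (two-sided exact sign-flip permutation p = 0.0039, the smallest that 9 libraries allow, adjusted p = 0.0281 over 36 contrasts). The background rate was higher for CpG than for CHH in every library, so a CpG needed a higher level to be listed, and the part of this in the difference was not tested.

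Both strands were alike in level. The plus strand held 17842 cytosines and the minus strand 18470. The level, the summed MLmc per union cytosine, was 0.506%, 0.482% and 0.518% on the plus strand and 0.504%, 0.479% and 0.516% on the minus strand of MG1 to MG3. In FG1 to FG3 it was 0.495%, 0.424% and 0.496% on the plus strand and 0.503%, 0.424% and 0.490% on the minus strand, and the ratio of the strands ranged from 0.985 to 1.01 over the 6 libraries. The plus strand had the higher level in 6 of 9 libraries (exact sign-flip permutation p = 0.574). The listed share was higher on the plus strand in 9 of 9 libraries, by a mean of only 0.686 percentage points (exact sign-flip permutation p = 0.0039, adjusted p = 0.0281). The plus strand also had the higher median coverage, as with 894 against 867 reads in MG1 and 2220 against 2165 in FG3. Only SP1 went the other way, with 1348 against 1383 reads. The part of coverage in the listed share was not tested. In gametophytes the facing cytosines of a CpG or CHG were listed together about as often as their shares give, among pairs with both cytosines in the union. Among 1264 CpG pairs and 2251 CHG pairs, the number listed on both strands was 0.982 to 1.06 times the product of the strand shares in the 6 gametophyte libraries. For CHG this ratio had little room to rise, since 1866 plus and 1861 minus cytosines of the pairs were listed in MG1 and 2161 and 2145 in FG3. The CHG values thus say little about pairing. Pairs with 1 or no cytosine in the union were not counted, so the CpG values of gametophytes cannot show a lack of pairing either. In SP1 to SP3 the CHG ratio was 1.03, 0.858 and 1.06. In SP2 and SP3 only 8 and 11 CpG pairs were listed on both strands, which was 2.50 and 1.61 times that product.

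The base before the cytosine set SP2 and SP3 apart from all other libraries. It was read from the positions of the listed cytosines themselves, since a cytosine listed on the opposite strand marks a guanine. A base marked on neither strand was called unmarked, and may be A, T or an unlisted C or G. These classes were chosen after values had been seen and are described without a test. Of the 33030 CHG and CHH cytosines of the union, 17.2% follow a marked guanine. They made up 17.3%, 17.4% and 17.1% of those listed in MG1 to MG3, 17.3%, 16.9% and 17.2% in FG1 to FG3, and 19.2% in SP1. In SP2 and SP3 they made up 97.5% and 97.1%. Only 58 CHG and CHH cytosines in SP2 and 78 in SP3 were listed without a marked guanine before them.

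Seen from the union, 39.3% and 46.8% of the 5680 CHG and CHH cytosines after a guanine were listed in SP2 and SP3. None of the 6643 that follow a cytosine was listed in either library, and of the 20707 after an unmarked base 0.280% and 0.377% were. SP1 listed 43.0%, 39.2% and 37.0% of these 3 classes, in the order guanine, cytosine and unmarked. Gametophytes listed 79.6% to 95.4% after guanine, 86.8% to 97.2% after cytosine and 75.7% to 94.8% after an unmarked base. CpG cytosines, too, were listed most often after guanine in SP2 and SP3, with 19.1% and 24.8%, against 1.57% and 3.73% after an unmarked base. Unlike CHG and CHH cytosines, some CpG cytosines were also listed after a cytosine, 5.02% in SP2 and 5.97% in SP3. The CHG and CHH cytosines listed after guanine were partly the same ones. SP2 and SP3 shared 1205 of them, 53.9% of those in SP2 and 45.3% of those in SP3. Of the 58 and 78 after an unmarked base they shared 37.

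**Figure D2:**
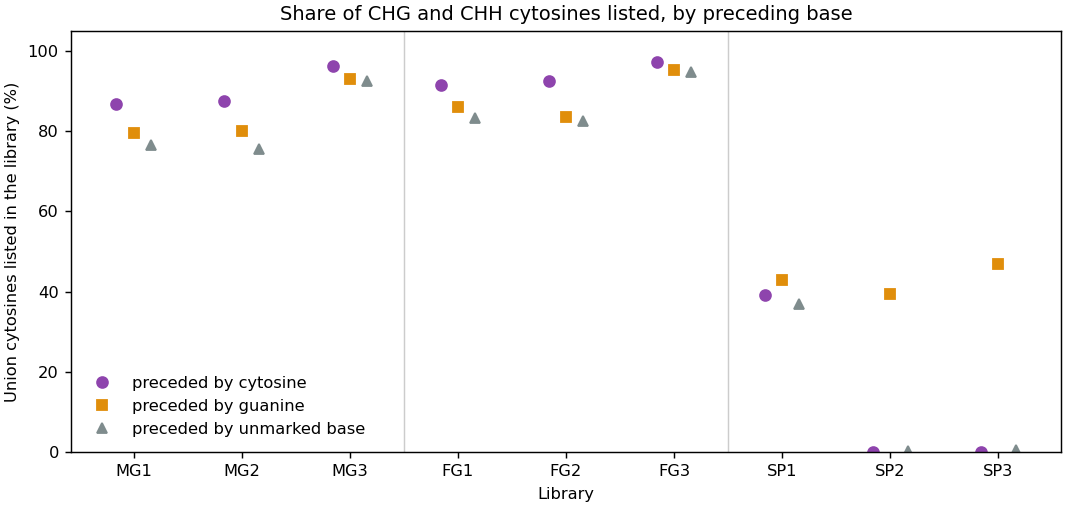
Share (%) of the union's chloroplast CHG and CHH cytosines that each library listed, split by the base before the cytosine, with 1 point per class and library. In SP2 and SP3 only the class after guanine is above 1%, whereas all 3 classes lie at 37.0% or more in the other libraries.

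The pattern was not limited to the chloroplast. On the mitochondrial genome 96.7% and 97.7% of the CHG and CHH cytosines listed in SP2 and SP3 followed a guanine, against 20.4% in SP1 and 17.9% to 18.9% in gametophytes. On the nuclear sequences 10.7% and 10.8% of such cytosines followed a marked guanine in SP2 and SP3, against 4.59% in SP1 and 3.72% to 4.06% in gametophytes. The SP2 and SP3 values in the stage comparisons above thus come mostly from 1 sequence class. Leaving that class out, the sum of MLmc was 17.6 times higher in MG and 16.7 times higher in FG than in SP, and the mean MLmc 1.59 and 1.41 times higher. The SP sum then rested on SP1, with 24.7 in SP1, 0.736 in SP2 and 0.794 in SP3, against 147.1 to 159.8 in MG and 131.3 to 152.8 in FG. For the mean MLmc, FG and SP overlapped (exact permutation p = 0.3). No cause of the pattern was tested.

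Among gametophytes both the listing and the level were higher after a cytosine than after an unmarked base. The listed share of CHH was 1.03 to 1.16 times as high and that of CpG 1.70 to 2.13 times. CHH cytosines after a cytosine had a level of 0.711%, 0.692% and 0.726% in MG1 to MG3 and 0.693%, 0.630% and 0.694% in FG1 to FG3. After an unmarked base it was 0.484%, 0.448% and 0.495% in MG1 to MG3 and 0.476%, 0.405% and 0.475% in FG1 to FG3. The level after a cytosine was thus 1.46 to 1.56 times as high in all 6 libraries, with no overlap between the classes. The ratio was 1.41 to 1.53 for CHG, 1.70 to 2.27 for CpG, and 1.38 to 1.47 for CHG and CHH on the mitochondrial genome. After a guanine the CHH level was 0.960 to 1.02 times that after an unmarked base. In SP1 the CHH level after a cytosine was 0.995 times that after an unmarked base.

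**Figure D3:**
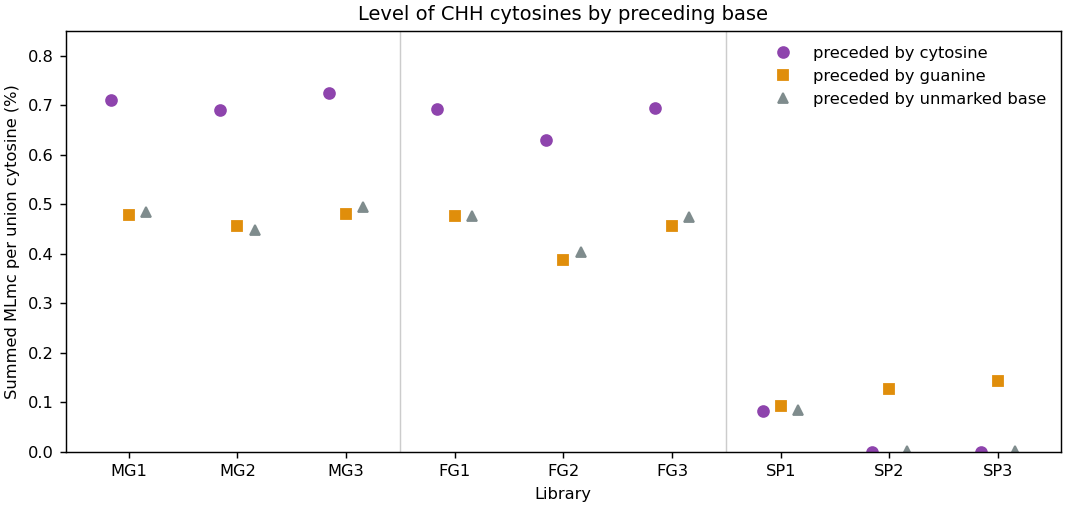
Level of chloroplast CHH cytosines (summed MLmc per union cytosine, %) by the base before the cytosine, with 1 point per class and library. In each of the 6 gametophyte libraries the class after cytosine lies above both others, and in SP2 and SP3 only the class after guanine is clearly above zero.

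The level also differed by the base after the CHH cytosine in these 6 libraries. A CHH cytosine followed by another cytosine had 0.822 to 0.850 times the level of one followed by an unmarked base. The highest class lay after a cytosine and before an unmarked base, with 0.793%, 0.769% and 0.801% in MG1 to MG3 and 0.761%, 0.701% and 0.767% in FG1 to FG3. The level of a CHH cytosine between 2 cytosines was 0.423%, 0.417% and 0.458% in MG1 to MG3 and 0.451%, 0.376% and 0.435% in FG1 to FG3. The last cytosine of a run of cytosines thus had a higher level than one inside it. These classes, too, were chosen after their values had been seen.

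Along the genome the gametophyte level was even. The listed cytosines spanned positions 791 to 130582 of the chloroplast sequence that the lists use, whose genes were not analysed here. Of 131 adjacent windows of 1000 bases, 125 held at least 100 cytosines of the union. In these the level had a coefficient of variation of 6.89%, 7.30% and 4.68% in MG1 to MG3 and 6.15%, 7.93% and 6.74% in FG1 to FG3. It was 15.7%, 36.4% and 38.0% in SP1 to SP3. The mean level of a stage ranged over windows between 0.442% and 0.588% in MG, between 0.415% and 0.550% in FG, and between 0.0276% and 0.0740% in SP. Window levels correlated with r of 0.24 to 0.62 between libraries of 1 gametophyte stage and 0.18 to 0.53 between MG and FG, over 125 windows that share library, depth and base composition.

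**Figure D4:**
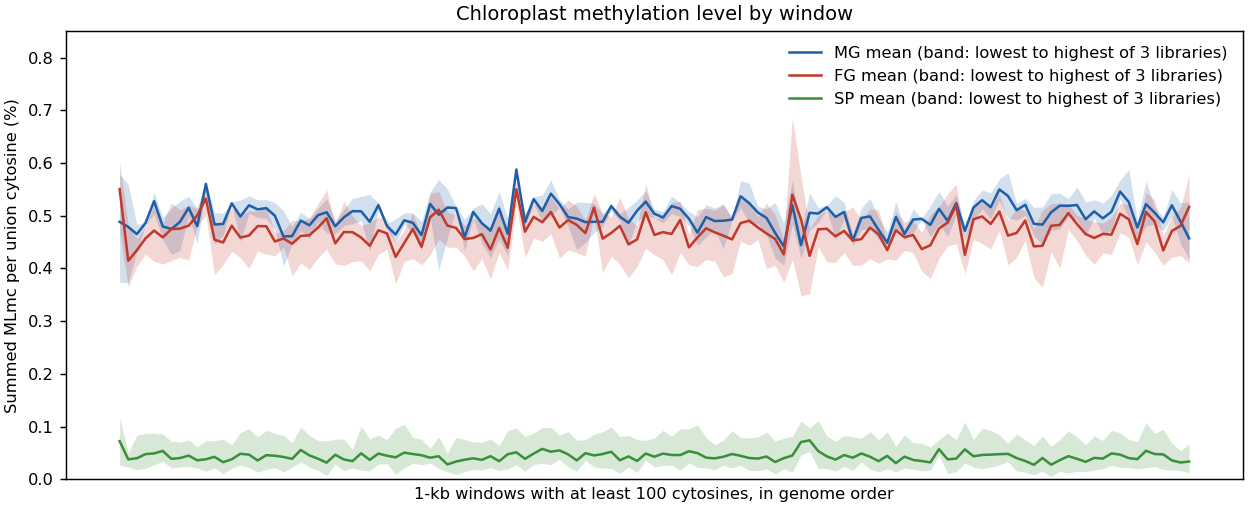
Level of chloroplast methylation (summed MLmc per union cytosine, %) in the 125 windows of 1000 bases with at least 100 cytosines, in genome order, with lines for stage means and bands from the lowest to the highest of the 3 libraries. MG and FG overlap near 0.5% along the genome, and the SP band lies below both in every window.

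Windows were compared between stages in a fit over the whole genome with limma on log2(sum of MLmc + 0.1), so that fold changes of low windows are understated, and p-values were adjusted after Benjamini and Hochberg. Of 129 chloroplast windows tested for FG against SP, 127 were higher in FG and 0 lower, where 75.2% of all windows tested were higher in FG and 0.0728% lower. For MG against SP, 128 of 128 were higher in MG, where 85.5% of all windows were higher and 0.00475% lower. The median log2 difference of the chloroplast windows was 2.78 for FG, beside 1.95 over all windows tested, and 2.85 for MG, beside 2.17. In all 125 full windows every library of either gametophyte stage lay above every SP library, a count that was not made for windows of the other genomes. The 2 contrasts share their SP libraries.

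No test called a chloroplast window between MG and FG. None of 129 chloroplast windows was called by limma, and none had an unadjusted p under 0.05. Over all windows tested, 1.48% were higher in MG and 0.0128% lower. The median log2 difference of MG to FG was 0.09 on the chloroplast and 0.22 over all windows, and 121 of the 129 chloroplast differences were positive. With edgeR on methylated reads, 0 windows were called and 2 had an unadjusted p under 0.05 with mapped reads as library sizes, and 0 and 0 with the chloroplast depth. With DESeq2 0 were called and 3 had an unadjusted p under 0.05. The 3 MG libraries were all higher than the 3 FG libraries in 22 of 125 windows, and all lower in 0. Neither these counts nor that of positive differences were made for windows of the other genomes, so they mark no trait of the chloroplast.

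The window from 122001 to 123000 had the highest mean sum of MLmc over the 9 libraries and the smallest adjusted p in both contrasts with SP. Its sum of MLmc was 1.99, 2.01 and 2.12 in MG1 to MG3, 1.96, 1.75 and 1.94 in FG1 to FG3, and 0.330, 0.113 and 0.0840 in SP1 to SP3. The SP libraries lay far below all others, and the log2 difference was 3.06 ± 0.56 for MG against SP (SE, limma adjusted p = 0.00103) and 2.95 ± 0.61 for FG against SP (SE, limma adjusted p = 0.00164). The window from 50001 to 51000 followed in both, with 1.98, 1.97 and 1.97 in MG, 1.90, 1.75 and 1.89 in FG, and 0.328, 0.0927 and 0.0963 in SP. Its log2 difference was 3.04 ± 0.57 for MG against SP (SE, limma adjusted p = 0.00106) and 2.94 ± 0.61 for FG against SP (SE, limma adjusted p = 0.00168). Next came the window from 54001 to 55000 for FG against SP, with a log2 difference of 2.83 ± 0.61 (SE, limma adjusted p = 0.00181), and the window from 55001 to 56000 for MG against SP, with 2.78 ± 0.53 (SE, limma adjusted p = 0.00111). The third highest mean sum lay in the window from 121001 to 122000, with 2.06, 1.81 and 1.96 in MG, 1.79, 1.64 and 1.90 in FG, and 0.357, 0.102 and 0.106 in SP. A sum grows with the number of cytosines in its window. The windows starting at 122001, 50001 and 121001 held 374, 336 and 383 cytosines of the union, against a median of 288 over the 125 full windows. That from 50001 to 51000 also holds the highest single cytosines described below.

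The windows with the lowest sums were those with few listed cytosines. From 2001 to 5000 the union held only 19 cytosines in 3 windows, with a median coverage of 23 reads and at most 74. Within this stretch no library listed any cytosine from 3560 to 4896, from 2850 to 3258, from 3260 to 3408 or from 3410 to 3478, nor from 2365 to 2848, and the stretch just before it was empty from 1989 to 2363. A similar thin window from 86001 to 87000 held 20 cytosines at a median coverage of 27 reads and was empty from 86112 to 86995. The first window, 1 to 1000, held 33 at 59.5 reads. Few reads and few listed cytosines went together there, and no level is given for these windows. The stretch from 82538 to 83530, which is 993 bases long, was also empty, while the 115 and 81 cytosines of the windows around it had a median coverage of 966 and 883.5 reads. Elsewhere neighbouring positions of the union lay a median of 2 bases apart.

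At single cytosines, MG and FG did not differ by any call. The 16373 cytosines listed in all 6 gametophyte libraries went into edgeR's quasi-likelihood model for bisulfite counts, together with all other cytosines of the series that were listed in the libraries compared. None was called, 751 of 16373 had an unadjusted p under 0.05, and 0.00% of all 22198 cytosines tested were called in either direction. Fisher's exact test on summed reads and limma on log2 MLmc also called 0, with 641 and 964 at an unadjusted p under 0.05. The median log2 difference of MG to FG was 0.13, and 10398 of the 16373 were positive.

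The contrasts with SP could be tested only where all 3 SP libraries list the cytosine, so that the class after guanine made up most of them. Each gametophyte library compared had to list it too. At median coverage the lowest listed CHH level was 0.258% to 0.344% in MG, 0.182% to 0.284% in FG and 0.148% to 0.233% in SP. The part of these unequal floors in the counts that follow was not tested. Of 415 chloroplast cytosines tested for FG against SP, 399 followed a marked guanine. In FG, 123 were higher and 0 lower than in SP, where 27.0% of all 488 tested were higher. Of 377 tested for MG against SP, 366 followed a guanine, and 168 were higher and 0 lower in MG, where 39.2% of all 472 tested were higher. The median log2 difference was 0.91 for FG and 1.03 for MG against SP. Without SP1, 0 cytosines were called for FG against SP by edgeR, although 131 had an unadjusted p under 0.05, and 50 for MG against SP. Without FG1 and without FG3 66 and 40 were called for FG against SP. Without MG2 and without MG3 98 and 94 were called for MG against SP.

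The cytosine with the smallest p for MG against SP, at position 101895 on the plus strand, had an MLmc of 1.30%, 0.643% and 1.004% in MG1 to MG3 and 0.128%, 0.250% and 0.239% in SP1 to SP3. All MG values lay above all SP values, with a log2 difference of 2.17 (edgeR adjusted p = 0.000184). Positions 90311 and 119381 on the plus strand followed, with log2 differences of 1.98 and 1.93 and edgeR adjusted p-values of 0.000266 and 0.000316. For FG against SP, position 70523 on the plus strand had 0.847%, 1.10% and 0.895% in FG1 to FG3 and 0.162%, 0.397% and 0.333% in SP1 to SP3, with a log2 difference of 1.64. Position 65131 on the minus strand and position 15709 on the plus strand had log2 differences of 1.74 and 1.75, and all 3 had an edgeR adjusted p of 0.0081. All 6 cytosines follow a guanine, and none has FG or MG values that overlap those of SP in its own contrast.

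Cytosines listed in all 9 libraries reached only modest levels. The highest mean over libraries, 0.814%, was at position 69659 on the minus strand. It had 1.35%, 1.11% and 0.882% in MG1 to MG3, 1.70%, 0.294% and 0.785% in FG1 to FG3, and 0.345%, 0.386% and 0.474% in SP1 to SP3. FG overlapped SP there, since FG2 was below all SP libraries. The 4 next, at positions 53754, 58545, 7829 and 70523, averaged 0.676% to 0.767%.

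A few sites in gametophytes stood far above the even level of the genome. They were ranked by mean MLmc among 30999 cytosines listed with at least 100 reads in at least 4 of the 6 gametophyte libraries, a rule chosen after values had been seen, and the 40 highest are described without a test. The first 4 were CHH cytosines within 30 bases. Position 50887 on the plus strand had 9.16%, 7.44% and 5.61% in MG1 to MG3, 8.41%, 7.64% and 6.99% in FG1 to FG3 and 1.01% in SP1, and was not listed in SP2 or SP3. The exact 95% binomial interval was 6.85% to 11.9% in MG1 (49 of 535 reads) and 0.505% to 1.80% in SP1 (11 of 1089 reads), which covers counting error only, since reads are not independent molecules. SP1 was the lowest library in which this cytosine was listed.

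The other 3 of this group behaved alike. Position 50916 on the minus strand had 10.2%, 6.03% and 6.66% in MG, 5.98%, 5.59% and 5.31% in FG and 1.02% in SP1. Position 50912 on the minus strand had 9.40%, 5.34% and 6.14% in MG, 6.56%, 5.61% and 5.02% in FG and 0.802% in SP1. Position 50891 on the plus strand had 7.53%, 7.73% and 5.89% in MG, 6.93% and 7.93% in FG1 and FG2 and 0.635% in SP1, and was not listed in FG3. None was listed in SP2 or SP3, and their gametophyte values all lay above the SP1 value.

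These sites lie in mirror pairs. Position 50887 on the plus strand and 50916 on the minus strand are equally far from a common centre, and so are 50891 on the plus strand and 50912 on the minus strand. Of the 40 highest sites, 20 fell into such pairs on opposite strands about only 4 centres, and 13 of the first 15 did. Around each centre the map of marked C and G bases is its own mirror image on the opposite strand. The matching arms are 23, 37, 60 and 25 bases long, from 50879 to 50901 and 50902 to 50924, from 103164 to 103200 and 103201 to 103237, from 108239 to 108298 and 108300 to 108359, and from 117867 to 117891 and 117892 to 117916. They hold 2, 7, 15 and 3 marked bases per arm. The pairs from which the centres were found account for 2, 2, 4 and 2 of these. At the first centre the mirror image thus restates the choice of pairs, and near 117892 it nearly does. The map shows only C and G, so whether these stretches are inverted repeats in sequence was not tested.

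**Figure D5:**
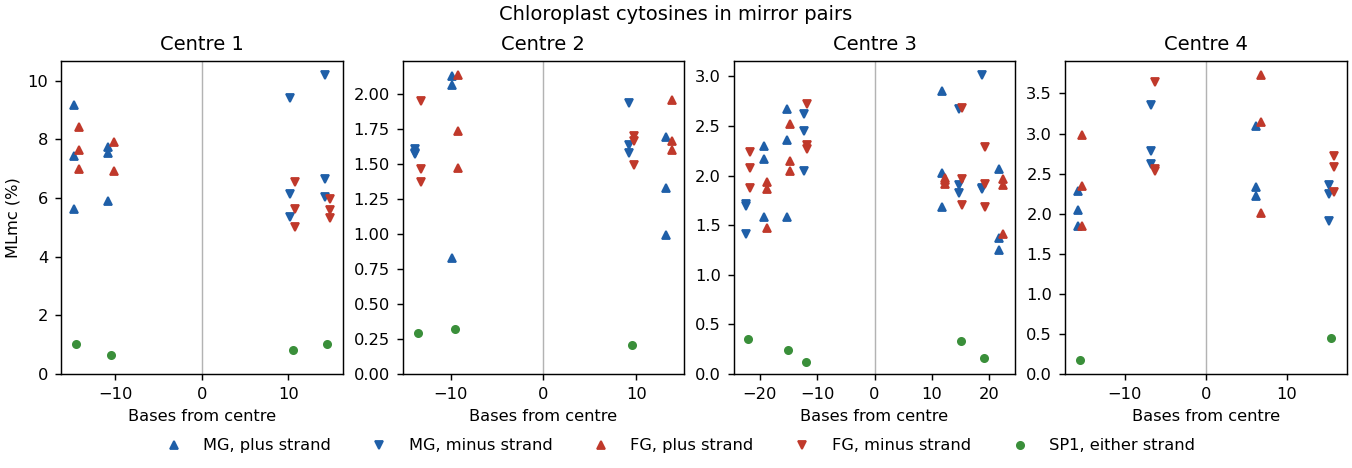
MLmc (%) of the 20 mirror-paired cytosines among the 40 highest, by distance in bases from each of the 4 centres in genome order, with 1 point per gametophyte library where listed and a green point for SP1 where listed. Pairs at equal distance left and right of the centre lie on opposite strands, and the SP1 points, shown for 14 sites, lie below all gametophyte points of the same site.

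The levels of the arms and their flanks are given as a description, since the centres were found from the 40 highest sites and arms above flanks restate that choice. The 4 cytosines in the arms of the first centre are the 4 highest sites themselves. At the first centre the level of the 4 cytosines in the arms was 9.07%, 6.63% and 6.07% in MG1 to MG3 and 6.97%, 6.69% and 4.33% in FG1 to FG3, against 0.444% to 0.531% for the flanking 300 bases on each side. At the centre near 117892 the arms had 1.89%, 2.09% and 2.01% in MG and 2.37%, 2.76% and 1.86% in FG. At that near 108300 the arms had 1.16%, 1.26% and 1.02% in MG and 1.22%, 1.12% and 1.04% in FG. At that near 103201 the arms had 1.23%, 1.02% and 1.11% in MG, against 1.27%, 1.19% and 1.27% for FG. The flanks of these 3 pairs of arms lay between 0.391% and 0.554% in the 6 libraries.

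A search of the whole C and G map by a fixed rule, which asked for arms of at least 10 bases with at least 6 marked bases each and at most 20 bases between them, found 5 mirrored stretches. It found those near 103201 and 108300 again, with mean gametophyte levels of 1.18% and 1.14%. The 3 others, which no ranking of levels had picked, start at 65424, 77119 and 79696 and had 0.867%, 0.807% and 0.578%. Per library the stretch from 65424 had 0.910%, 1.08% and 0.831% in MG1 to MG3, 0.965%, 0.616% and 0.795% in FG1 to FG3, 0.185% in SP1 and no listed cytosine in SP2 and SP3. That from 77119 had 0.915%, 0.803% and 0.737% in MG and 0.795%, 0.720% and 0.869% in FG. That from 79696 had 0.726%, 0.560% and 0.581% in MG and 0.606%, 0.460% and 0.532% in FG. They hold only 14, 38 and 16 cytosines, and were not compared with other stretches of such size.

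Compared with the nuclear genome of the same libraries, chloroplast cytosines were listed at far lower levels and far greater depth. The mean MLmc of nuclear listed cytosines was 13.5%, 13.3% and 11.5% in MG1 to MG3, 13.8%, 14.1% and 12.2% in FG1 to FG3, and 11.8%, 14.2% and 13.8% in SP1 to SP3. The chloroplast mean was 0.0194 to 0.0506 times that, lower in 9 of 9 libraries, which is given as a description. Of the nuclear listed cytosines, 96.2% to 98.7% rested on 1 methylated read, against 0.149% to 1.95% on the chloroplast, so that a listed nuclear level was mostly 1 read over the coverage. The median coverage of the chloroplast was 110.1 to 289 times the nuclear one, which was 7 to 9 reads.

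Per length of genome, the listed sums of the chloroplast and the nucleus were close in gametophytes and apart in SP. These sums rest on unlike detection, since nuclear cytosines were listed from far fewer reads, as given above. The chloroplast sums of SP2 and SP3 also come mostly from the class after guanine. The part of either in the ratios was not tested. The sum of MLmc per kb of chloroplast was 1.04 ± 0.0406 times the nuclear one in MG, 1.15 ± 0.131 times in FG and 0.434 ± 0.145 times in SP (SD, n = 3 each). SP did not overlap either gametophyte stage (exact permutation p = 0.1 for both), and MG and FG overlapped (exact permutation p = 0.3). The sum per kb was 0.833 to 0.904 times that of the mitochondrial genome, lower in 9 of 9 libraries (exact sign-flip permutation p = 0.0039). The ratio was 0.848 ± 0.0128 in MG, 0.877 ± 0.00663 in FG and 0.873 ± 0.0265 in SP (SD, n = 3 each). MG lay below FG and SP without overlap (exact permutation p = 0.1 for both), and FG and SP overlapped (exact permutation p = 0.9). The mean MLmc of listed cytosines was 0.772 to 1.02 times the mitochondrial mean and below it in 7 of 9 libraries (exact sign-flip permutation p = 0.0469), and without any single library the p was at most 0.0938.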

How the data were processed

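WGBS lists of 9 libraries were used, 3 each of MG, FG and SP, with stage and replicate taken from the sample labels. Per the study's methods, reads were aligned with Bismark, duplicates were removed and methylated cytosines were called; FastQC is also named in the submitters' processing notes. The deposited counts give, per listed cytosine, its methylated and its unmethylated reads as raw numbers, and the deposited fraction is MLmc. The p-values of the authors, raw and corrected, served only to recover the background rate, by a two-sided binomial test, and to check that every listed cytosine has a coverage of at least 5 reads. Positions are those of the deposited lists, and no reference sequence or annotation of the chloroplast was used here.

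Cytosines of the chloroplast were joined by position and strand. Library values were compared with two-sided exact permutation tests over libraries, and classes within libraries with exact sign-flip permutation tests. Adjacent windows of 1000 bases were tested with limma 3.58.1 (trend) on log2(sum of MLmc + 0.1) where at least 3 libraries listed a cytosine, and single cytosines with edgeR 4.0.16, both over all genomes with Benjamini-Hochberg adjusted p under 0.05, each in the 2 stages compared. Other software was R 4.3.3 with DESeq2 1.42.0, and Python 3.11.15 with matplotlib 3.10.9, scipy 1.17.1, pandas 2.3.3 and numpy 2.4.6. Both models were tested on simulated data.

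Named windows are the 3 with the smallest adjusted p per comparison and direction among called ones without overlap, and the 3 highest and 3 lowest sums; no window lacked a listed cytosine, and the 8 longest stretches without one were named after their values were seen. Named cytosines are the 5 highest among those in all 9 libraries, 3 per comparison with the smallest p, and the 5 highest per stage among those listed in that stage only. The members and lists were chosen with earlier results of these data known. Alternatives were other coverage and read minimums, contexts, strands, pseudocounts, window lengths, filters, scalings, tools, a replicate block and leaving out each library. Deviations of same-numbered libraries from their stage means correlated at -0.00139 to 0.0435 over all windows. Over chloroplast windows they correlated at 0.311, 0.440 and 0.706 between MG and FG, each highest with its own number, and at -0.299 to 0.0889 in pairs with SP. The labels do not say what a number marks, and the model without a block was kept. The replicates are called biological by the study, but no label says which cultures or individuals they came from, so p-values measure the spread between these samples, which may be technical.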

Additional observations from a re-analysis of the deposited data

How the results depend on the processing

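The direction of both contrasts with SP held for the number of listed cytosines, the sum of MLmc and the mean MLmc under all alternatives run. Log2 ratios without 1 library ranged from 1.83 to 3.41, 3.19 to 4.33 and 0.92 to 1.20 for MG against SP, from 1.91 to 3.49, 3.11 to 4.24 and 0.75 to 1.03 for FG against SP, and from -0.17 to -0.02, 0.01 to 0.13 and 0.12 to 0.24 for MG against FG. MG against FG turned positive, to 0.19, for the number of CHG and CHH cytosines with at least 500 reads and an MLmc of at least 0.5% (alternative chosen after seeing the data). With at least 4 methylated reads the log2 ratio of listed cytosines was 3.25 for MG and 3.45 for FG against SP. Called windows higher than in SP numbered 0 for FG and 0 for MG with CpG only, 249 and 249 with windows of 500 bases, 65 and 65 with windows of 2000 bases, and 0 and 1 when levels were divided by the chloroplast mean, a setting that removes the shift shared by all windows; the named windows from 54001 to 55000 (FG against SP) and 55001 to 56000 (MG against SP) then had log2 differences of -0.12 and -0.39. Without 1 library 124 to 127 and 126 to 127 windows were called. Called cytosines without 1 library ranged from 0 to 119 for FG against SP and from 50 to 131 for MG against SP. The window median of MG against FG was -0.38 under edgeR with mapped reads as library size and positive under every other setting run. The log2 ratio of the mean MLmc to the mitochondrial one was -0.133 to -0.0821 without 1 library, with p above 0.05 in 7 of these 9 runs. The listed shares of CpG against CHH and of plus against minus strand kept their side of the threshold without any 1 library. So did the ratio of mean MLmc to the nuclear one and the ratios of median coverage. The contrast of CHH with CHG and the sums per kb were not run without single libraries. Same-numbered MG and FG libraries deviated together over chloroplast windows (r of 0.311 to 0.706), but not over all windows (at most 0.0435). With a replicate block 0, 126 and 127 windows and 0, 100 and 169 cytosines were called for MG against FG, FG against SP and MG against SP. Depth limits the listing, unlisted is not unmethylated, and the 19 cytosines from 2001 to 5000 rest on few reads.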
